A study of Mus musculus with 6 samples.

Results

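The genes described here are 45 mouse genes that sense DNA damage or repair it, all found among the 22564 genes of the expression table. They were listed by symbol for their roles in these pathways, with earlier results of these data known. They were measured in RNA from EOMA cells, a mouse endothelioma line, after 24 h with 2 µM DHTS in 3 libraries or 24 h with the solvent DMSO in 3 libraries. DHTS is 15,16-dihydrotanshinone I, a compound of Salvia miltiorrhiza root, and both groups were grown in 1640 medium with fetal bovine serum at normal oxygen. Whether each library stands for its own culture is not stated in the labels. The p-values therefore reflect library-to-library spread, part or all of which may be technical.

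Cells repair DNA by several routes that divide the work by kind of lesion. Nucleotide excision repair cuts out a short stretch of strand around bulky or ultraviolet lesions, and base excision repair removes and replaces damaged bases. Mismatch repair corrects replication errors, while broken DNA is sensed by the ATM and ATR kinases and rejoined by homologous recombination or by end joining. Translesion polymerases copy past lesions that remain, and several of these genes, among them DDB2, XPC and RRM2B in human cells, are known targets of the tumour suppressor p53.

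Libraries held 9343159 to 11113857 estimated fragments with DHTS and 9753774 to 12255247 with DMSO. Levels are in FPKM, fragments scaled by transcript length and by library size. Of 16 endothelial marker genes 4 reached a mean of 1 FPKM and 10 had a listed value of 0 in every DMSO library. Clec14a, Emcn, Fli1, Icam2 and Tie1 had a listed value of 0 in all 6 libraries. The summed level of these 16 was 188, 186 and 210.3 FPKM with DHTS, against 150.1, 146 and 149 FPKM with DMSO. Most of that sum was Cd34 (mean 102 FPKM with DHTS and 77.6 FPKM with DMSO) and Ets1 (59.5 and 40.6 FPKM). Pecam1, Cdh5 and Kdr lay below 1 FPKM in both groups. Of the 4 that reached 1 FPKM, Esam (1.87), Ets1 (0.54) and Cd34 (0.39) were higher on the log2 scale (limma adjusted p = 0.00627, 0.00016 and 0.00044). Egfl7 was not called (-0.3, limma adjusted p = 0.285), and was lower on fragments scaled to library size (-0.59, limma adjusted p = 0.0001). Of 9 epithelial markers 5 reached that mean, and their sum was 264, 263 and 256 FPKM with DHTS, against 219, 214 and 218 FPKM with DMSO. Within that sum Krt18 (197 ± 4.89 FPKM with DHTS and 136 ± 2.79 FPKM with DMSO, SD, n = 3 each) and Krt8 were higher, Epcam (-0.46, limma adjusted p = 0.00074) and Elf3 (-0.80, limma adjusted p = 6.8e-05) were lower on the log2 scale, and Spint1 was not called. The part of either in the results below was not tested. In bulk RNA, fewer cells of a kind and less RNA per cell cannot be told apart.

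The promoters of the 3 members that rose most and the 2 that fell most are shown first, because the results turn on these genes. Sequences are from RefSeq on GRCm38.p6, run 5′ to 3′ on the gene's strand, and span 250 bases before to 50 bases after the start site. Capitals mark matches on either strand to CCAAT, to GGGCGG (a GC box) or to the E2F-type letters TTTCCCGC.
Ercc5 (chr1:44147494-44147793, plus strand): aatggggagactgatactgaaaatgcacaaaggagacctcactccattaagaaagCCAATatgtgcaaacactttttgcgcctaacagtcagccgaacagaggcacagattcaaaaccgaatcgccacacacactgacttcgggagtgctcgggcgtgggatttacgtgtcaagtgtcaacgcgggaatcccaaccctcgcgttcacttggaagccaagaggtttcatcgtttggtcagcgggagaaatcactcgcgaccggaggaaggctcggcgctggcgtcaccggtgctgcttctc
Polk (chr13:96542530-96542829, minus strand): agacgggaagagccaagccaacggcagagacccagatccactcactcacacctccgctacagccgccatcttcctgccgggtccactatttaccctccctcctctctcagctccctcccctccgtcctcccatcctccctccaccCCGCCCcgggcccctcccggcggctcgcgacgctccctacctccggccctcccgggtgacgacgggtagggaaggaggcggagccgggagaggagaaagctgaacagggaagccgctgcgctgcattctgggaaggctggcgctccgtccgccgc
Msh6 (chr17:87974800-87975099, plus strand): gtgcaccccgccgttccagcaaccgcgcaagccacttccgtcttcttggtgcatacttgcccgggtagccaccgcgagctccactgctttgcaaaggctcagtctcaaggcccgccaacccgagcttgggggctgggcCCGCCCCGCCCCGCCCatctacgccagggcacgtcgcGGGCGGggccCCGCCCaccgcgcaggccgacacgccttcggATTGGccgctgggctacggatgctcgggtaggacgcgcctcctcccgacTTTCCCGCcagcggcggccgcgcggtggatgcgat
Ung (chr5:114130185-114130484, plus strand): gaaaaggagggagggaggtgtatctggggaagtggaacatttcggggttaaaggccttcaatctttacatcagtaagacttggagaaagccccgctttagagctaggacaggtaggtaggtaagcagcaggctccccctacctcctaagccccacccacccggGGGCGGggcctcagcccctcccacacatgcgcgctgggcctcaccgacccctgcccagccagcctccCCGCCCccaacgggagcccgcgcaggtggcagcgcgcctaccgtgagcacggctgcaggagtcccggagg
Rad51c (chr11:87404905-87405204, minus strand): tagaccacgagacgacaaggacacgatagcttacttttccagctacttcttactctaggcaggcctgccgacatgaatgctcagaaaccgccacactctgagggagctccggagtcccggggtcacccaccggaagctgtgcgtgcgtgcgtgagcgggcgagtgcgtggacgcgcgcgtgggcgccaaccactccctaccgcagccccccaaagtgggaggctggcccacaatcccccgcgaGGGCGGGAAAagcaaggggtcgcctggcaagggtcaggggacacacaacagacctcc

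Counting the first transcribed base as 0, the Ercc5 window held CCAAT at -195 and no GC box, while that of Msh6 held 5 GC boxes and CCAAT on the minus strand. TTTCCCGC stood at 15 to 22 on the plus strand of Msh6, and at -5 to 2 on the minus strand of Rad51c, where it overlaps a GC box. Of 32851 promoter windows of the same length 37.4% held CCAAT, 35.7% GGGCGG and 2.26% any of the 4 E2F-type sites searched (TTTCCCGC, TTTGGCGC, TTTGCCGC and TTTCGCGC). Windows were found for 34 of the 45 members, and 6 of these held an E2F-type site: 3 of the 11 members with a window that were higher, 1 of the 7 that were lower and 2 of the 15 not called. The p53 consensus decamer was found in 1 of the 34 windows, that of a member left untested, and in 8.36% of all windows. Its absence says only that these letters were not in the other windows. Ddb2, Xpc and Rrm2b, named above as p53 targets in human cells, were among the 11 members without a window and were not searched.

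The comparison of DHTS with DMSO asks which transcripts the compound changed. Of the 45 members 44 averaged at least 1 FPKM across all 6 libraries and were tested with limma on log2(FPKM + 1), the scale of every log2 fold change here, which understates the change of low genes. With DHTS 17 were higher and 7 lower at an adjusted p under 0.05, and 20 were not called. Over all 11416 genes tested 50.1% were called, 28.2% higher and 21.9% lower, so 24 of 44 (54.5%) is near the background. In 30 of the 44 the libraries of the groups did not overlap, where this held for 59.8% of all tested genes. Under quantile normalization 2551 genes were higher and 3411 lower, against 3218 and 2502 without it, and 11 members were higher and 10 lower. The members' median log2 fold change was 0.17, against 0.03 for all tested genes. It was 0.08 under quantile normalization, against -0.07 for all tested genes, and 0.09 without genes that hold fractional fragments (Ercc5, Polk, Msh3 and Pms2 among them), against 0.03. At 2-fold or more 3 members rose, Ercc5, Polk and Msh6, and 0 fell, where 5.83% of all tested genes rose and 1.75% fell by that much. Their absolute changes exceeded those of 98.4%, 96.4% and 94.0% of tested genes.

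**Figure D1:**
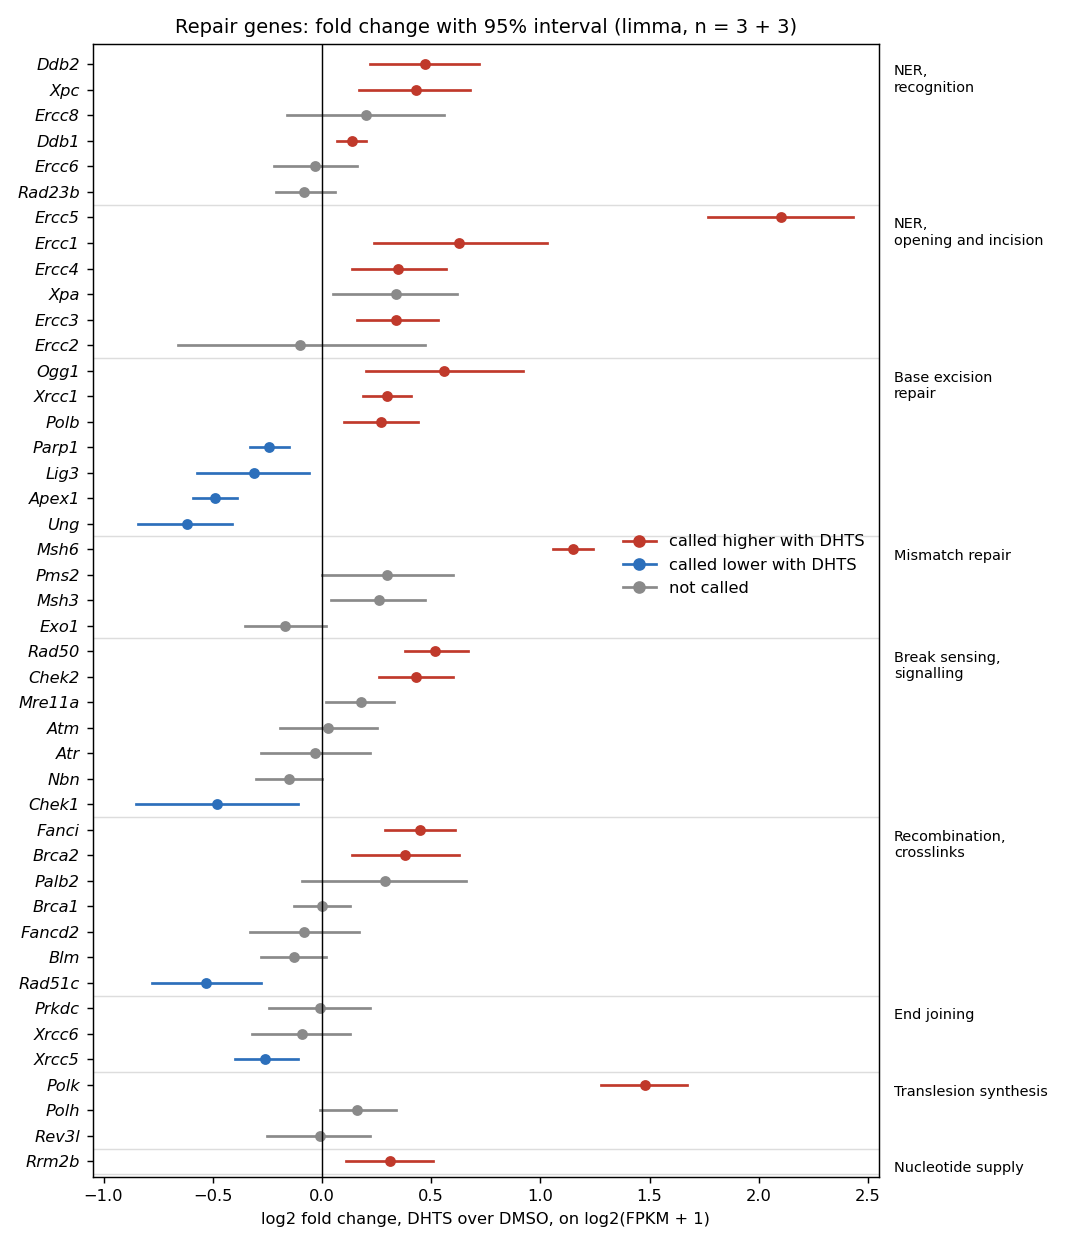
Each point is a tested repair gene, placed by its log2 fold change of DHTS over DMSO on log2(FPKM + 1), and its bar is the 95% interval of limma (3 libraries per group); NER is nucleotide excision repair. Ercc5, Polk and Msh6 lie beyond 1, and the remaining 41 lie between -0.62 and 0.63.

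By class, 10 of 19 tested excision repair genes were higher, 4 were lower, and the median log2 fold change was 0.27. Mismatch repair had 1 of 4 higher, 0 lower and a median of 0.28. Break repair and signalling had 4 of 17 higher and 3 lower, with a median of -0.01. Translesion synthesis and nucleotide supply had 2 of 4 higher and 0 lower, with a median of 0.24. Over all tested genes 28.2% were higher and 21.9% lower. The further genes given below did not keep this order. Of these, excision repair had 9 of 28 higher and 2 lower (median 0.14). Break repair and signalling had 16 of 45 higher and 3 lower (0.16 without Fanca). Mismatch repair had 1 of 4 higher and 0 lower (-0.08), and translesion synthesis and nucleotide supply 4 of 10 higher and 3 lower (-0.02). No test between classes was made, and under quantile normalization excision repair had 6 higher.

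**Figure D2:**
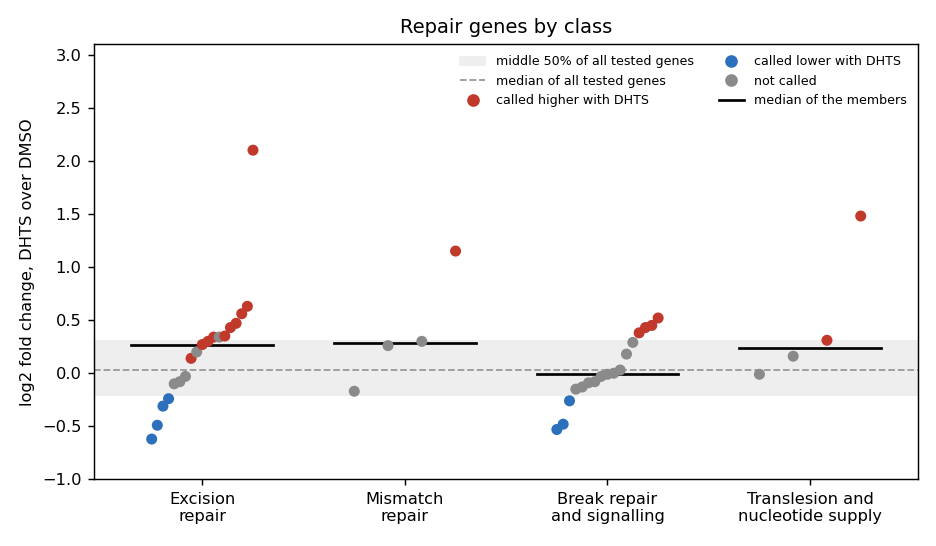
Log2 fold changes of DHTS over DMSO (vertical axis) for the 44 tested repair genes in 4 classes, with the class median as a bar, and the grey band and dashed line giving the middle 50% and the median (0.03) of all tested genes. Each of the excision, mismatch and translesion classes holds 1 gene beyond 1, and the break repair class has none beyond 0.53 in size.

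Nucleotide excision repair begins with recognition, and 3 of its 6 recognition genes rose. Ddb2, the damage-binding subunit of the UV-DDB complex, stood at 10.1, 11.2 and 10.4 FPKM with DHTS, against 8.59, 7.18 and 6.42 FPKM with DMSO. Xpc, which detects helix distortion across the genome, stood at 8.07, 5.98 and 7.04 FPKM with DHTS, against 4.89, 5.03 and 4.90 FPKM with DMSO. Every DHTS library lay above every DMSO library in both, with log2 fold changes of 0.47 (SE 0.11, adjusted p = 0.00903) for Ddb2 and 0.43 (SE 0.11, adjusted p = 0.0147) for Xpc. Ddb1, the adaptor that carries DDB2 on a ubiquitin ligase, was the most abundant member and rose by 0.14 (SE 0.03), at 268 ± 2.36 FPKM with DHTS and 244 ± 4.56 FPKM with DMSO (SD, n = 3 each, as after every ± here). The members of transcription-coupled repair, Ercc6 and Ercc8, were not called. Of the recognition genes outside the members, given below, Uvssa (0.43) and Xab2 (0.42) rose and Cetn2 fell (-0.28). Ercc6, the CSB translocase, stood at 3.97 ± 0.0585 FPKM with DHTS and 4.07 ± 0.164 FPKM with DMSO (95% interval of the log2 fold change -0.22 to 0.16). Ercc8, the CSA partner of CSB, stood at 7.73 ± 1.04 FPKM with DHTS and 6.65 ± 1.35 FPKM with DMSO (-0.16 to 0.56). Rad23b, the stabilising partner of XPC, stood at 113 ± 8.64 FPKM with DHTS and 119 ± 2.18 FPKM with DMSO (adjusted p = 0.305), and was lower on scaled fragments (-0.13, adjusted p = 0.00217). Xpc did not pass under quantile normalization (adjusted p = 0.068). Acp2 on the other strand shares 23.8% of the exon bases of Ddb2 and was not called (-0.14), and Tkfc (Dak in the table), which was higher (0.98), shares 5.1% of those of Ddb1.

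Of the 6 genes that open and cut the strand 4 rose (66.7% called, against 50.1% of all tested genes), led by the nuclease gene Ercc5. Ercc5 encodes XPG, which cuts on the 3′ side of the lesion, and lies on chromosome 1 at 44147744 to 44181260 (mm10, as are all gene positions here). It stood at 32.6, 31.6 and 32.9 FPKM with DHTS, against 5.38, 8.61 and 6.66 FPKM with DMSO. Its mean with DHTS was 4.70 times that with DMSO and the groups were far apart (log2 fold change 2.10, SE 0.14, limma adjusted p = 2.6e-05). In fragments scaled to library size, the other block of the table, it held 1043, 1060.3 and 1009.8 with DHTS, against 222, 232 and 234 with DMSO, so the DMSO libraries lay closer together there than in FPKM. Ercc1, whose product pairs with XPF to cut on the 5′ side, stood at 30, 47.9 and 34.7 FPKM with DHTS, against 26.2, 20.9 and 23.2 FPKM with DMSO. Its DHTS libraries were spread widely but none fell among the DMSO libraries (0.63, SE 0.17, adjusted p = 0.0177), and on scaled fragments it rose by 0.96 (SE 0.11). The XPF gene itself, Ercc4, rose by 0.35, at 8.44 ± 0.595 FPKM with DHTS and 6.41 ± 0.605 FPKM with DMSO. Ercc3, the XPB translocase of TFIIH, rose by 0.34, at 30 ± 2.69 FPKM with DHTS and 23.4 ± 1.15 FPKM with DMSO.

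The remaining 2 genes of this step were not called. Xpa, which verifies the lesion, stood at 15.8 ± 2.5 FPKM with DHTS and 12.2 ± 1.22 FPKM with DMSO (0.34, adjusted p = 0.0530). It passed without DHTS replicate 2 (0.0466), at a mean of at least 5 FPKM (0.0487) and with a replicate block (0.0247). Ercc2, the XPD helicase of TFIIH, had 8.42, 15.5 and 14.4 FPKM with DHTS, against 16.7, 12.9 and 10.9 FPKM with DMSO. These overlap widely, the interval of its log2 fold change ran from -0.66 to 0.47, and its sign turned on scaled fragments (0.16, adjusted p = 0.121). Overlapping genes, Klc3 on the other strand among them, share 42.7% of its exon bases. Without DMSO replicate 2 Ercc1 did not pass (adjusted p = 0.0578). Ercc4 did not pass under quantile normalization (adjusted p = 0.0893), nor without DMSO replicate 1 (0.0525), DMSO replicate 3 (0.0511) or DHTS replicate 1 (0.0541).

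**Figure D3:**
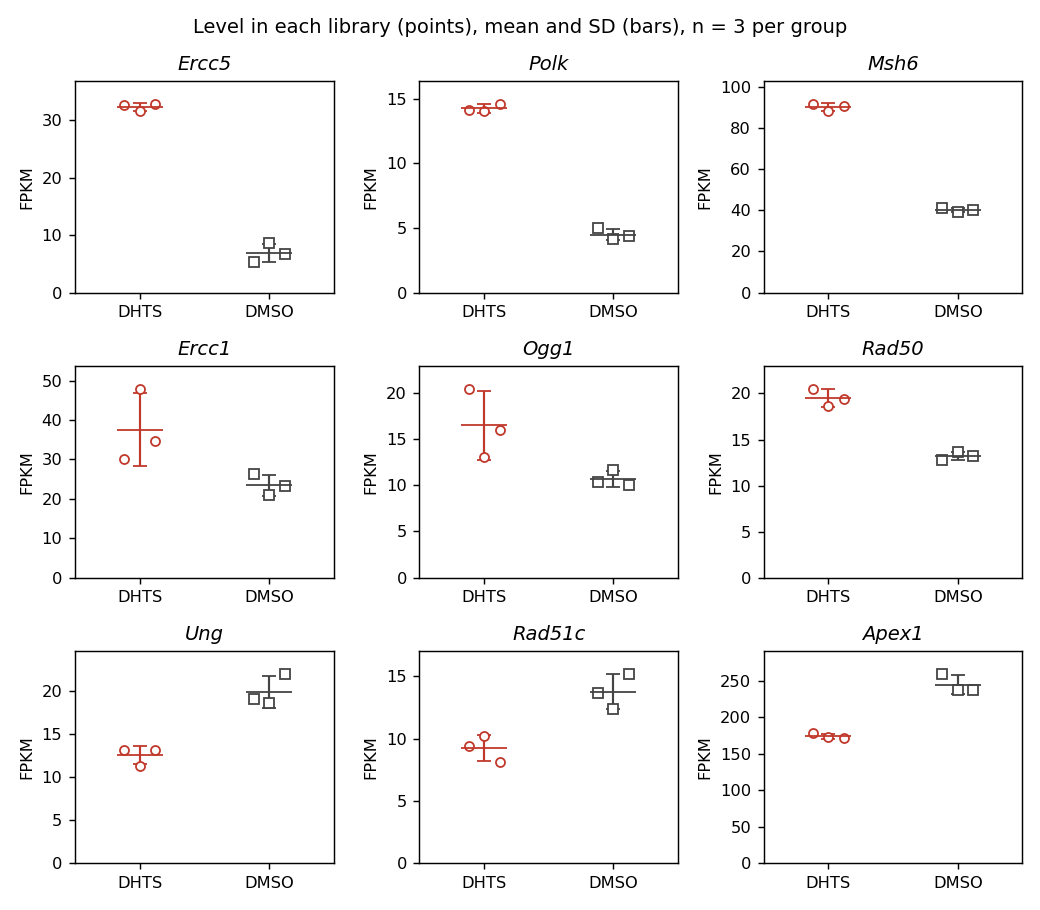
FPKM (vertical axis, from 0) of 9 repair genes in each library, DHTS as circles and DMSO as squares, with the group mean and SD as bars. In all 9 genes no DHTS library falls within the range of the DMSO libraries, and Ercc5, Polk and Msh6 are more than 2 times higher with DHTS.

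All 7 tested genes of base excision repair were called, 3 higher and 4 lower, where 50.1% of all tested genes were called. The glycosylase gene Ung, which removes uracil from DNA, on chromosome 5 at 114130386 to 114139323, stood at 13.1, 11.3 and 13.2 FPKM with DHTS, against 19.1, 18.6 and 22 FPKM with DMSO. It had the largest fall of any member (-0.62, SE 0.09, adjusted p = 0.00114). Ogg1, the glycosylase for oxidised guanine, stood at 20.4, 13 and 16.0 FPKM with DHTS, against 10.3, 11.6 and 10.0 FPKM with DMSO. It was higher in all DHTS libraries, whose spread was wide (0.56, SE 0.15, adjusted p = 0.0195). After the glycosylase, the endonuclease APE1 cuts the strand, and its gene Apex1 stood at 178, 173 and 171 FPKM with DHTS, against 259.5, 237 and 238 FPKM with DMSO (-0.49, SE 0.04, adjusted p = 9.3e-05). Of the Apex1 exon bases 61.7% also belong to Pip4p1 on the other strand, and since no strand setting is given in the sources used here, fragments of the pair cannot be told apart. Pip4p1 (Tmem55b in the table) was not called (0.13).

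The genes of gap filling and sealing divided as well. Polb, the gap-filling polymerase, rose by 0.27, at 34.5 ± 0.746 FPKM with DHTS and 28.6 ± 2.66 FPKM with DMSO. Xrcc1, the scaffold of this step, rose by 0.30, at 45.0 ± 1.80 FPKM with DHTS and 36.4 ± 0.978 FPKM with DMSO. Its ligase partner Lig3 fell by 0.31, at 18.4 ± 2.64 FPKM with DHTS and 23.0 ± 1.37 FPKM with DMSO. Parp1, which senses nicked DNA and recruits XRCC1, fell by 0.24 (adjusted p = 0.00195), at 59.5 ± 1.58 FPKM with DHTS and 70.2 ± 0.974 FPKM with DMSO. Neil1, another glycosylase gene, lay below the filter at 0.821, 1.53 and 0.921 FPKM with DHTS, against 0.936, 0.645 and 1.13 FPKM with DMSO, and was not tested.

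The Lig3 call was near the threshold (adjusted p = 0.0463). Lig3 did not pass without DMSO replicate 1 (0.104), DMSO replicate 2 (0.0608), DMSO replicate 3 (0.128), DHTS replicate 1 (0.0718) or DHTS replicate 2 (0.0555), and with no filter (0.0742), a plain variance fit (0.0597) or a replicate block (0.0514), but on scaled fragments Lig3 fell by 0.28 (adjusted p = 0.00032). Rffl on the other strand shares 25.1% of the exon bases of Lig3 and was lower too (-0.24), and Camk1 shares 10.6% of those of Ogg1 (-0.01, not called). The Ogg1 call was lost under quantile normalization (0.053) and without DMSO replicate 1 (0.0567) or DMSO replicate 3 (0.0601). The Polb call was lost under quantile normalization (0.0513) and without DHTS replicate 1 (0.0573) or DHTS replicate 3 (0.0501).

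In mismatch repair Msh6 was the only 1 of 4 members called. Msh6 encodes a subunit of the complex that recognises base mismatches, and lies on chromosome 17 at 87975062 to 87990892. It stood at 91.8, 88.2 and 90.7 FPKM with DHTS, against 41.3, 39.1 and 40.0 FPKM with DMSO (ratio of means 2.25; 1.15, SE 0.04, adjusted p = 1.2e-06). The libraries of each group lay close together and the groups far apart, and scaled fragments gave 1.17. Msh3, whose product recognises small loops, stood at 7.13 ± 0.504 FPKM with DHTS and 5.81 ± 0.502 FPKM with DMSO and was just short of the threshold (0.26, adjusted p = 0.0510). The ratio of Msh6 to Msh3 levels was 13.3, 11.4 and 13.4 with DHTS, against 7.77, 6.73 and 6.32 with DMSO. Pms2, of the endonuclease that follows, had 20, 19.4 and 16.5 FPKM with DHTS, against 12.3, 17.0 and 15.8 FPKM with DMSO (0.30, adjusted p = 0.0888), and the groups overlap. Exo1, the exonuclease that degrades the faulty strand, stood at 6.82 ± 0.426 FPKM with DHTS and 7.77 ± 0.442 FPKM with DMSO (-0.17, adjusted p = 0.124). Msh3 passed without DMSO replicate 3 (0.0465), at a mean of at least 5 FPKM (0.0498), with a plain variance fit (0.0345) and on scaled fragments (0.00921), where Pms2 rose (0.29, adjusted p = 0.00152) and Exo1 fell (-0.19, adjusted p = 0.0269) too. Exo1 also passed under quantile normalization (0.016).

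Among the genes that sense breaks and signal them, the damage kinases were not called. Atm stood at 5.57 ± 0.530 FPKM with DHTS and 5.42 ± 0.374 FPKM with DMSO, with an interval of the log2 fold change of -0.19 to 0.25. Atr stood at 3.85 ± 0.183 FPKM with DHTS and 3.96 ± 0.507 FPKM with DMSO (-0.28 to 0.22). The kinases they activate moved apart. Chek2, downstream of ATM, rose by 0.43 (SE 0.07, adjusted p = 0.00216), at 18.7 ± 1.04 FPKM with DHTS and 13.6 ± 0.860 FPKM with DMSO. Chek1, downstream of ATR, had 7.58, 8.27 and 12.1 FPKM with DHTS, against 13.2, 13.9 and 12.4 FPKM with DMSO. DHTS replicate 3 lay close to the DMSO range (-0.48, SE 0.16, adjusted p = 0.0379), and on scaled fragments the fall was 0.27. In the complex that tethers broken ends, Rad50 stood at 20.5, 18.6 and 19.4 FPKM with DHTS, against 12.8, 13.7 and 13.2 FPKM with DMSO. The groups are well apart (0.52, SE 0.06, adjusted p = 0.00039). Its nuclease partner Mre11a (0.18, adjusted p = 0.0585) and the remaining subunit Nbn (-0.15, adjusted p = 0.0967) did not pass, though Nbn did under quantile normalization (-0.27, adjusted p = 0.0116). The ratio of Rad50 to Nbn levels was 1.60, 1.47 and 1.64 with DHTS, against 0.901, 1.04 and 0.928 with DMSO. Chek1 did not pass without DMSO replicate 1 (0.0883 as adjusted p), DMSO replicate 2 (0.102), DMSO replicate 3 (0.0668), DHTS replicate 1 (0.104) or DHTS replicate 2 (0.108), and with no filter (0.0649) or a replicate block (0.0587).

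Of the 7 recombination and crosslink repair genes 2 rose, 1 fell and 4 were not called (42.9% called, against 50.1% of all tested genes). Rad51c, a mediator of homologous recombination, lies on chromosome 11 at 87376645 to 87404954 and had 9.38, 10.2 and 8.13 FPKM with DHTS, against 13.7, 12.4 and 15.2 FPKM with DMSO. It fell without overlap between the groups (-0.53, SE 0.11, adjusted p = 0.00541). Fanci, a subunit of the crosslink-sensing ID2 clamp, had 14.0, 12.8 and 14.3 FPKM with DHTS, against 9.95, 9.42 and 9.92 FPKM with DMSO (0.45, SE 0.07, adjusted p = 0.00131), and Polg on the other strand shares 16.0% of its exon bases. Its clamp partner Fancd2 was not called (-0.08, adjusted p = 0.554), at 12.1 ± 0.988 FPKM with DHTS and 12.9 ± 1.75 FPKM with DMSO. Brca2, another mediator of recombination, rose by 0.38 (adjusted p = 0.0185), at 3.40 ± 0.210 FPKM with DHTS and 2.38 ± 0.258 FPKM with DMSO.

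Brca1, whose product takes part in homologous recombination, had nearly equal means, 21.8 ± 0.909 FPKM with DHTS and 21.8 ± 0.690 FPKM with DMSO, and an interval of -0.13 to 0.13. Palb2, the bridge between BRCA1 and BRCA2 (0.29, adjusted p = 0.171), and the helicase gene Blm (-0.13, adjusted p = 0.134) did not pass, though Blm did under quantile normalization (0.0151) and, with Fancd2 (0.0457), on scaled fragments (0.0433). Brca2 did not pass without DMSO replicate 2 (0.0575 as adjusted p), DHTS replicate 1 (0.0503) or DHTS replicate 2 (0.0589), under quantile normalization (0.207) and with a replicate block (0.0510). Many recombination genes follow the cell cycle, and of 15 proliferation genes 3 were higher with DHTS, 4 were lower and 8 were not called, with a median of -0.07. That is 46.7% called, against 50.1% of all tested genes. Mcm7 (0.39), Mcm4 (0.26) and Ccnb1 (0.22) were higher, and Tyms (-0.4), Mki67 (-0.38), Top2a (-0.2) and Ccna2 (-0.15) were lower. On scaled fragments, where 62.5% of tested genes were called, more of them passed. Pcna (-0.11), Mcm2 (-0.07), Mcm6 (-0.08) and Cdk1 (-0.09) were lower there too, and Mcm3 (0.08) and Ccne2 (0.27) were higher. The summed level of all 15 was 1854, 1819 and 1786 FPKM with DHTS, against 1884, 1841 and 1828 FPKM with DMSO. This sum joins changes in both directions, and the part of these genes in the results was not tested.

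Of the 3 end joining members 1 was lower and 2 were not called (33.3% called, against 50.1% of all tested genes). Xrcc5, the larger Ku subunit that caps broken ends, had 20.1, 20.4 and 19.0 FPKM with DHTS, against 25.4, 22.8 and 23.5 FPKM with DMSO. It fell by 0.26 (SE 0.06, adjusted p = 0.0110), with no overlap. Its Ku partner Xrcc6 had 37.5, 31.9 and 40.0 FPKM with DHTS, against 40.3, 40.9 and 35.5 FPKM with DMSO, which overlap (-0.09, adjusted p = 0.438). On scaled fragments it held 652, 630.1 and 627 with DHTS, against 754, 801 and 715 with DMSO, and fell (-0.25, adjusted p = 0.00067). Desi1 on the other strand shares 7.7% of its exon bases and was lower as well (-0.19). Prkdc, the kinase that Ku recruits, stood at 3.13 ± 0.284 FPKM with DHTS and 3.16 ± 0.174 FPKM with DMSO (interval -0.24 to 0.22).

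Of the 3 translesion polymerase members 1, Polk, was called (33.3%, against 50.1% of all tested genes). Polk, an error-prone polymerase for bulky adducts, on chromosome 13 at 96480690 to 96542579, had 14.1, 14.0 and 14.6 FPKM with DHTS, against 4.98, 4.11 and 4.38 FPKM with DMSO. The ratio of means was 3.17 (1.48, SE 0.08, adjusted p = 1e-05), with the groups far apart and 1.64 on scaled fragments. Polh, which copies past ultraviolet lesions, had 22.3, 20.8 and 22.1 FPKM with DHTS, against 18.7, 18 and 21.4 FPKM with DMSO. Its groups overlap (0.16, adjusted p = 0.111), and it passed without DMSO replicate 3 (0.031) and on scaled fragments (0.0393). The ratio of Polk to Polh levels was 0.632, 0.672 and 0.659 with DHTS, against 0.266, 0.228 and 0.205 with DMSO. Rev3l, the catalytic subunit of polymerase zeta, was not called (-0.01, interval -0.25 to 0.22), although on scaled fragments it was lower (-0.16, adjusted p = 0.0270).

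Rrm2b, the p53-inducible ribonucleotide reductase subunit that supplies nucleotides for repair, had 14.3, 11.7 and 12.2 FPKM with DHTS, against 10.1, 10.3 and 9.78 FPKM with DMSO. It rose by 0.31 (SE 0.08, adjusted p = 0.0204) with no overlap. It missed the threshold under quantile normalization (0.127 as adjusted p) and without DMSO replicate 1 (0.0529) or DMSO replicate 3 (0.0614). The p53 gene itself, Trp53, had 238, 231 and 229.6 FPKM with DHTS, against 143, 147 and 145 FPKM with DMSO (0.68, adjusted p = 3.7e-06), and its part in these changes was not tested.

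The members have 2 measures in the table, as FPKM and as fragments scaled to library size, and the 2 measures gave no opposite calls. All 24 members called on FPKM were called in the same direction on scaled fragments, and 9 more were called there, 3 higher and 6 lower. On that measure 20 members were higher and 13 lower, where 62.5% of the 11930 genes tested were called, 33.9% higher and 28.6% lower. The largest difference between the 2 log2 fold changes of a member was 0.33, that of Ercc1.

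**Figure D4:**
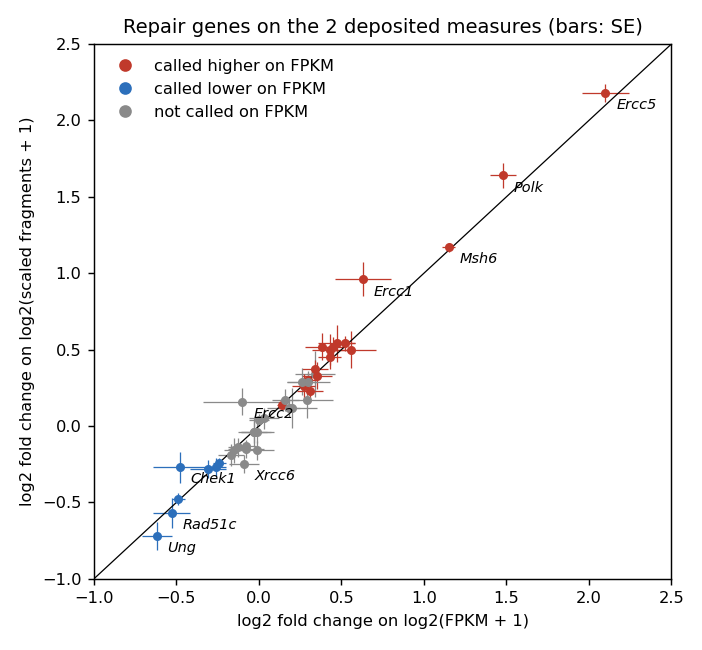
Log2 fold change of each tested repair gene on log2(FPKM + 1) (horizontal axis) and on log2(scaled fragments + 1) (vertical axis), with SE bars and the line of equality. Most genes lie near the line, Ercc1 and Ercc2 lie above it, and Xrcc6 lies below it.

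Of 89 further genes of the same pathways 88 are in the table and 87 were tested, of which 30 were higher and 8 lower with DHTS (43.7% called, against 50.1% of all tested genes, with 28.2% higher and 21.9% lower). Without Fanca, described below, 29 of 86 were higher and 8 lower (43.0% called). Their median log2 fold change was 0.12. In base excision repair 4 of 13 were higher, 1 was lower and 8 were not called. The glycosylase genes Mbd4 (1.17, SE 0.11) and Mpg (1.13, SE 0.09) rose, Mpg to 21.7 ± 1.38 FPKM with DHTS, against 9.37 ± 1.05 FPKM with DMSO, and so did Nthl1 (0.52). The glycosylase gene Tdg fell (-0.35), at 47.0 ± 1.60 FPKM with DHTS and 60.4 ± 4.50 FPKM with DMSO. In recombination Rad51d rose by 1.32, at 19.5, 19.7 and 16.8 FPKM with DHTS, against 5.90, 7.84 and 6.98 FPKM with DMSO, opposite in sign to its relative Rad51c. The nuclease gene Mus81 (0.82) rose too. In translesion synthesis Rev1, a scaffold polymerase, rose by 0.98 and Poli by 0.73, and Polq rose by 0.44.

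Lig4 (0.63), Dclre1c (0.53) and Poll (0.25) of end joining rose, as did Rad1 (0.58) and Rad9a (0.52) of the checkpoint clamp. The histone variant gene H2afx, whose product marks breaks, fell by 0.75, at 39.8 ± 2.35 FPKM with DHTS and 67.7 ± 4.63 FPKM with DMSO. In nucleotide excision repair Uvssa (0.43), Xab2 (0.42), Ccnh (0.41), Gtf2h1 (0.32) and Rpa1 (0.24) rose, and Cetn2 fell by 0.28. Among nucleotide supply genes Samhd1 fell by 0.67 and Dut by 0.18, and Rrm2 rose by 0.38. Fanca lies in a stretch of chromosome 8 whose 75 genes were all listed at 0 in every DMSO library, and it was listed at 25.9, 29.7 and 35.1 FPKM with DHTS, so no fold change is given.

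**Figure D5:**
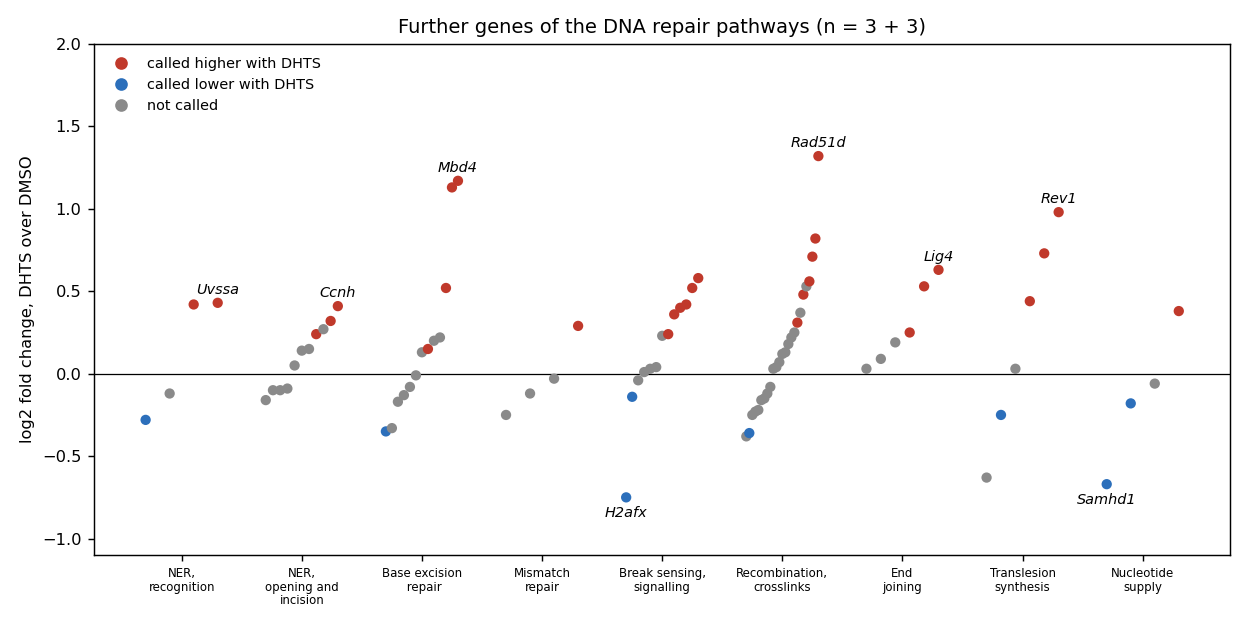
Log2 fold change of DHTS over DMSO (vertical axis) for 86 further genes of the repair pathways by role, coloured by call; NER is nucleotide excision repair, and Fanca is left out. The strongest called gene is named for each role other than mismatch repair, with Rad51d highest at 1.32 and H2afx lowest at -0.75.

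The pathway annotation that the authors deposited with the table holds more genes per pathway, and these lists were chosen after the data were seen. Their counts stand against 28.2% higher and 21.9% lower among all tested genes. Of its nucleotide excision repair genes 14 of 43 tested were higher and 3 lower (median -0.01), and of base excision repair 11 of 31 were higher and 6 lower (-0.03). Mismatch repair had 6 of 22 higher and 2 lower (-0.06), and homologous recombination 10 of 27 higher and 2 lower (0.18). End joining had 5 of 12 higher and 1 lower (0.16), and the Fanconi anemia pathway 17 of 48 higher and 2 lower. The 48 include its 1 gene of the chromosome 8 stretch, and the median without that gene was 0.16. These pathways share genes with each other and with the members.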

How the data were processed

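RNA was taken from EOMA cells after DHTS or DMSO (n = 3 libraries each). The tools named per the submitters' processing notes are Cuffdiff 2.2.1, Cufflinks, HISAT2 2.0.4 and fastp 0.20.0, and the build is mm10. No source used here gives the annotation, the strand setting or the role of each tool. The authors deposited an FPKM value per gene and library, and a block headed as counts that holds a signal: estimated fragments over a library factor. Multiplied back, 92.7% to 93.0% of values below 3000 came within 0.1 of whole, too few for a count model.

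Genes with a mean of at least 1 FPKM entered limma 3.58.1 (R 4.3.3), fitted to log2(FPKM + 1) with trend and robust options, treatment as the only term, two-sided, and Benjamini-Hochberg adjustment over all tested genes at 0.05. The same fit on the scaled fragments used a mean of at least 10. Adjusted p-values are from limma. The members and lists were chosen with earlier results of these data known. Values in each library are given for called members that changed by at least 0.5 and for the 2 largest changes of each role. Up to 3 called genes of each role, with Tdg besides, are named among the further genes, and other names were chosen after their values were seen. Exon overlaps are from the GENCODE annotation of mm10. Values of some further genes are not reported here.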

Additional observations from a re-analysis of the deposited data

How the results depend on the processing

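Of the 24 called members 15 kept their direction and side of the threshold in each of the 16 alternatives that could fit them, and 9 lost the call in at least 1 of them, as given beside each gene. Of the 20 not called, 11 passed in at least 1. Quantile normalization, which took all tested genes to 2551 higher and 3411 lower, gave 11 members higher and 10 lower, 6 of the higher in excision repair, 1 in translesion synthesis and nucleotide supply, and 5 of the lower in break repair and 1 in mismatch repair, with 18 further repair genes lower against 8. Scaled fragments gave 13 members lower, 6 of them in break repair, 1 in mismatch repair and 1 in translesion synthesis, and 3 mismatch repair genes higher, with 13 further repair genes lower. A mean of at least 5 FPKM, and a fit without trend and robust options, each gave 2 mismatch repair genes higher. Without genes that hold fractional fragments (chosen after seeing the data), which removes Ercc5, Msh3, Pms2 and Polk, 1 translesion or nucleotide supply gene was higher. Leaving out each library gave 14 to 17 members higher and 5 to 7 lower, 1 to 2 mismatch repair genes higher (2 without DMSO replicate 3) and 1 to 2 translesion or nucleotide supply genes higher (1 without DMSO replicate 1).

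Signs turned only in members not called: Atm under quantile normalization (-0.13), Brca1 (0.04) and Ercc2 (0.16) on scaled fragments, and, as libraries were left out, Atm (-0.03 to 0.08), Atr (-0.12 to 0.03), Brca1 (-0.03 to 0.03), Ercc2 (-0.25 to 0.16), Fancd2 (-0.14 to 0.02), Prkdc (-0.07 to 0.03) and Rev3l (-0.07 to 0.09). The cause was not tested. Same-numbered libraries of the groups did not deviate together (r = -0.05, 0.06 and 0.01). These values show no shared shift by number, but cannot show whether such libraries were prepared together. A replicate block gave 17 members higher and 5 lower, against 17 and 7 without the block. Depth limited Neil1 most, with a mean of 11 fragments with DHTS and 9 with DMSO.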
